A study of Mus musculus with 4 samples.

Results

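The type I interferon response was described as 37 interferon-inducible genes, taken by name, in each cell class of mouse lung and blood. Of these, 35 were among the 32285 genes of the count matrices, and Mx1 and Mx2 were not analysed here. The data were 4 single-cell RNA libraries from female C57/Bl6 mice 6 to 8 weeks old. In the metastasis arm 800000 B16F10 cells, a mouse melanoma line, were injected into the spleen on day 0 and the spleen was removed. In the sham arm saline was injected into the spleen and the spleen was removed in the same way. Both arms also received 250000 B16F10 cells under the skin on day 0, so sham mice were tumour-bearing mice as well, and lung and blood were taken on day 7. The series title speaks of metastases in the liver, and how many mice went into a library was not stated. With 1 library for each tissue and arm, no test across samples was possible, and every interval given is a 95% interval that covers counting error only.

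Type I interferons bind the receptor made of Ifnar1 and Ifnar2 and act through the kinases Jak1 and Tyk2. Signalling through them brings Stat2 and Irf9 to the nucleus, where their complex binds interferon-stimulated response elements in front of target genes. The targets include RNA sensors, nucleases, inhibitors of viral replication and Irf7, the factor that amplifies interferon production. A few plasmacytoid dendritic cells make most type I interferon in many infections, and in many tissues a low level of the response is present without infection.

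The promoters below belong to members on which the results turn: Ifit1 and Ifit3, used to find interferon-high cells, and Isg15, Rsad2 and Isg20, which made up most of the list in red cells. Each sequence is the 200 bases before a transcription start from RefSeq, written 5′ to 3′ on the strand of the gene, with motif matches in capitals.
Ifit1 (GRCm38.p6, chr19:34640689-34640888, plus strand): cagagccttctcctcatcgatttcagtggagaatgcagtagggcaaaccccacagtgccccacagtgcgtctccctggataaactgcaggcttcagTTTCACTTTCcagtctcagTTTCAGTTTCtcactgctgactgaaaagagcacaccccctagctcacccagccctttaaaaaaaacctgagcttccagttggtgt
Ifit3 (GRCm38.p6, chr19:34583329-34583528, plus strand): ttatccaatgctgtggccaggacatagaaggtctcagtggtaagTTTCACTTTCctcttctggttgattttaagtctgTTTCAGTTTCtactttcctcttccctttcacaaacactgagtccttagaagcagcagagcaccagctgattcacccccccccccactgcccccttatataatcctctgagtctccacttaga
Isg15 (GRCm38.p6, chr4:156200819-156201018, minus strand): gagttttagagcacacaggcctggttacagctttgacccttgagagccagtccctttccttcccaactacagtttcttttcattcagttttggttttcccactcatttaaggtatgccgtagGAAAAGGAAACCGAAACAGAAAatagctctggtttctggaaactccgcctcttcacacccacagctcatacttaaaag
Rsad2 (GRCm38.p6, chr12:26456453-26456652, minus strand): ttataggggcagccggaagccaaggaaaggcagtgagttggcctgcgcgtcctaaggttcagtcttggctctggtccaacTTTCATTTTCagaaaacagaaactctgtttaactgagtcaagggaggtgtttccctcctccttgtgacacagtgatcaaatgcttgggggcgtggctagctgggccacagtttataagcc
Isg20 (GRCm38.p6, chr7:78914035-78914234, plus strand): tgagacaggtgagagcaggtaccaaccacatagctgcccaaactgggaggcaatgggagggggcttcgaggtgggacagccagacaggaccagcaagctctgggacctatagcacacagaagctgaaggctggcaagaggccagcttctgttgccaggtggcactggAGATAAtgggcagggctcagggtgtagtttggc
For Ifit1, Ifit3, Isg15 and Rsad2 the capitals mark GAAANNGAAA on either strand, a motif of the interferon-stimulated response element, and overlapping matches are joined. For Isg20 no such match was found in these letters, and the capitals mark AGATAA, a motif bound by GATA factors, which direct the red cell lineage. This window is 1 of 3 Isg20 starts in the table, and neither of the other two held AGATAA in its 200 bases. Of the 37 listed genes, 27 were in the promoter table, with 33 windows of 250 bases before to 50 bases after a start. GAAANNGAAA on either strand was in 15 of the 33 windows, of 14 genes, against 3.44% of all 32851 windows. AGATAA on either strand was in 5 of the 33 windows, of 5 genes, against 11.2% of all windows. The genes were Irf7, Irf9, Isg20, Oas3 and Oasl2, and Isg15 and Rsad2 were not among them. A match is a description of the letters and does not show binding.

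Cells were assigned to classes from the number of distinct marker genes with a unique molecular identifier (UMI), the tag that counts a captured RNA molecule once. A class needed at least 2 of its own markers and at least 3 times as many as any other class, and barcodes with at least 50% haemoglobin UMIs were called red cells. All 8 markers of the neutrophil-like, monocyte-like, T-like, B-like and NK-like lists were at 20 CPM or more in the class they name in every library. The gate used these same markers, so their level is no independent check of the class names. CPM here is UMIs per 1000000 UMIs of the class without haemoglobin. Metastasis lung held 1069 neutrophil-like, 283 monocyte-like, 1672 T-like, 1867 B-like, 945 NK-like and 6176 red cells. Sham lung held 39, 113, 4536, 4098, 1770 and 1958 cells of the same classes. Metastasis blood held 2199, 283, 505, 1618, 46 and 3418 of them, and sham blood held 392, 316, 2234, 7640, 228 and 719. Classes with under 50 cells in a library were not compared between arms, which leaves out lung neutrophil-like and blood NK-like cells. Haemoglobin made up 78.1% and 65.7% of all UMIs in metastasis and sham lung, while blood had 78.6% in metastasis and 43.7% in sham. Pairs of libraries shared 109 to 316 barcodes, 0.602% to 1.07% of the smaller one.

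Among the 5 leukocyte classes with most cells the summed level of the 35 members was highest in monocyte-like and neutrophil-like cells, lower in T-like and B-like cells and lowest in NK-like cells, in all 4 libraries. Monocyte-like cells had 2519 CPM in metastasis lung and 2952 CPM in sham lung, and 3425 CPM in metastasis blood and 3163 CPM in sham blood. Neutrophil-like cells had 2050 and 2316 CPM in metastasis and sham lung, and 2257 and 2939 CPM in metastasis and sham blood. Their order below monocyte-like cells held in each library, though in sham lung it rests on 39 neutrophil-like cells. T-like cells had 1386 and 1426 CPM in metastasis and sham lung, and 1639 and 1522 CPM in metastasis and sham blood. B-like cells had 1448 and 1445 CPM in metastasis and sham lung, and 1701 and 1530 CPM in metastasis and sham blood. The intervals of T-like and B-like cells overlapped in sham lung, metastasis blood and sham blood, and in metastasis lung they also overlapped, at 1353 to 1419 against 1408 to 1490 CPM. NK-like cells had 904 and 950 CPM in metastasis and sham lung, and 855 and 810 CPM in metastasis and sham blood. Red cells stood above every leukocyte class of the 5, at 9781 and 4867 CPM in metastasis and sham lung and at 11897 and 3862 CPM in metastasis and sham blood. Plasmacytoid dendritic-like cells, the professional interferon producers, were rare, stood above the 5 classes and were led by Bst2, Ifi27l2a, Trim30a and Irf7. Their list level was 6840 CPM over 9 cells in metastasis lung and 6880 CPM over 8 cells in sham lung, and 9846 CPM in 1 cell of metastasis blood and 7150 CPM over 3 cells of sham blood. Lung endothelial-like cells had 3699 CPM over 16 cells in the metastasis arm and 2559 CPM over 53 cells in the sham arm, and epithelial-like cells had 121 CPM over 56 cells and 174 CPM over 34 cells.

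**Figure D1:**
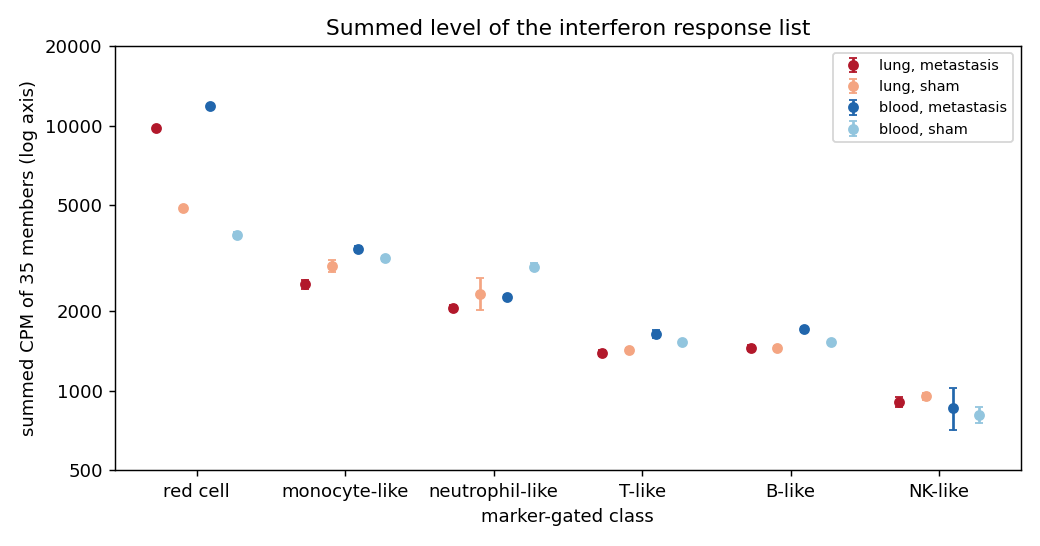
The y axis gives the summed CPM of 35 members on a log axis and the x axis the class, with 1 point for each library and bars for the 95% Poisson interval. Red cells lie at 3862 to 11897 CPM, and NK-like cells lie lowest at 810 to 950 CPM.

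The members that made up this level differed between classes. Ifi27l2a, a small mitochondrial membrane protein, was the leading member in monocyte-like, T-like and B-like cells. It had 923 and 1202 CPM in monocyte-like cells of metastasis and sham lung, and 1237 and 1158 CPM in those of metastasis and sham blood. In T-like cells it had 388 and 472 CPM in metastasis and sham lung and 495 and 441 CPM in metastasis and sham blood. In B-like cells it had 465 and 524 CPM in metastasis and sham lung and 618 and 516 CPM in metastasis and sham blood. In neutrophil-like cells it had 264 and 445 CPM in metastasis and sham lung and 168 and 370 CPM in metastasis and sham blood. Among neutrophil-like cells it was the leading member in sham lung and sham blood only. NK-like cells stood apart, with 6.00 and 16.2 CPM of Ifi27l2a in metastasis and sham lung, and with 0 and 5.29 CPM in metastasis and sham blood. The 0 in metastasis blood rests on 46 cells. Ifi27l2a was thus abundant in T-like and B-like cells and close to 0 in NK-like cells of the same libraries.

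Ifi203, of the interferon-inducible DNA-binding family, was abundant in lymphocytes and near 0 in neutrophil-like cells. It had 172 and 213 CPM in NK-like cells of metastasis and sham lung, and 302 and 257 CPM in those of metastasis and sham blood. B-like cells had 247 and 240 CPM of Ifi203 in metastasis and sham lung, and 329 and 338 CPM in metastasis and sham blood. T-like cells had 167 and 173 CPM of Ifi203 in metastasis and sham lung, and 215 and 264 CPM in metastasis and sham blood. In neutrophil-like cells Ifi203 stood at 0.933 and 0 CPM in metastasis and sham lung, and at 0.465 and 1.61 CPM in metastasis and sham blood. Its relative Ifi204 was high in myeloid classes, with 166 and 182 CPM in monocyte-like cells of metastasis and sham lung and 252 and 193 CPM in those of metastasis and sham blood. In T-like cells Ifi204 was at or under 0.320 CPM in every library. Ifi203 and Ifi204, the Slfn genes, the Trim30 genes and the Ifit genes have close relatives, and how reads were shared between copies was not stated.

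Slfn4, a schlafen gene of myeloid cells, had 315 and 240 CPM in neutrophil-like cells of metastasis and sham lung, and 211 and 249.005 CPM in those of metastasis and sham blood. It was at 6.72 CPM or less in every other leukocyte class and library. Slfn1, which restrains the growth of mouse T cells when overexpressed, had 168 and 171 CPM in neutrophil-like cells of metastasis and sham lung and 355 and 318 CPM in those of metastasis and sham blood. T-like cells had 97.0 and 96.2 CPM of Slfn1 in metastasis and sham lung, and 178 and 152 CPM in metastasis and sham blood, while B-like and NK-like cells had at most 3.40 CPM. Slfn1 was therefore high in T-like cells and near 0 in both other lymphocyte classes.

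Trim30a, a regulator of innate signalling, was present in all 5 leukocyte classes. It had 165 and 114 CPM in neutrophil-like cells of metastasis and sham lung and 362 and 309 CPM in those of metastasis and sham blood. In B-like cells Trim30a had 107 and 99.4 CPM in metastasis and sham lung and 123 and 105 CPM in metastasis and sham blood. T-like cells had 73.2 to 91.0 CPM of Trim30a and NK-like cells 96.3 to 108 CPM over the 4 libraries. Bst2, the tetherin that holds budding virus at the cell surface, had 132 and 161 CPM in monocyte-like cells of metastasis and sham lung and 144 and 153 CPM in those of metastasis and sham blood. It had 62.9 to 93.5 CPM in T-like and B-like cells, 33.0 to 43.1 CPM in NK-like cells and 5.11 to 11.4 CPM in neutrophil-like cells. Parp14, an ADP-ribosyltransferase, was found in every leukocyte class, at 22.8 to 87.9 CPM over the 5 classes and 4 libraries. Ifi35, a binding partner of Nmi, had 47.0 to 74.1 CPM in T-like, B-like, NK-like and monocyte-like cells and 0 to 22.4 CPM in neutrophil-like cells.

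Among the enzymes that make or cut oligonucleotides, Oas3 had 73.6 to 92.7 CPM in neutrophil-like cells and 32.6 to 37.9 CPM in monocyte-like cells, against 0 to 10.7 CPM in the 3 lymphocyte classes. Oasl2, a synthetase-like protein, showed the same division, with 111 to 243 CPM in neutrophil-like cells and 0 to 8.69 CPM in lymphocytes. The RNA sensor Ifih1 had 23.8 to 137 CPM in neutrophil-like cells and 1.77 to 2.70 CPM in B-like cells. Its partner sensor Ddx58 had 55.4 to 63.2 CPM in B-like cells and 11.4 to 91.1 CPM in neutrophil-like cells. Zbp1, a sensor of Z-form nucleic acids, was highest in monocyte-like cells, at 146 and 119 CPM in metastasis and sham lung and 131 and 96.4 CPM in metastasis and sham blood. The feedback enzyme Usp18, which removes Isg15 from proteins, had at most 26.5 CPM in any class, and Ifi44 had at most 9.32 CPM.

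**Figure D2:**
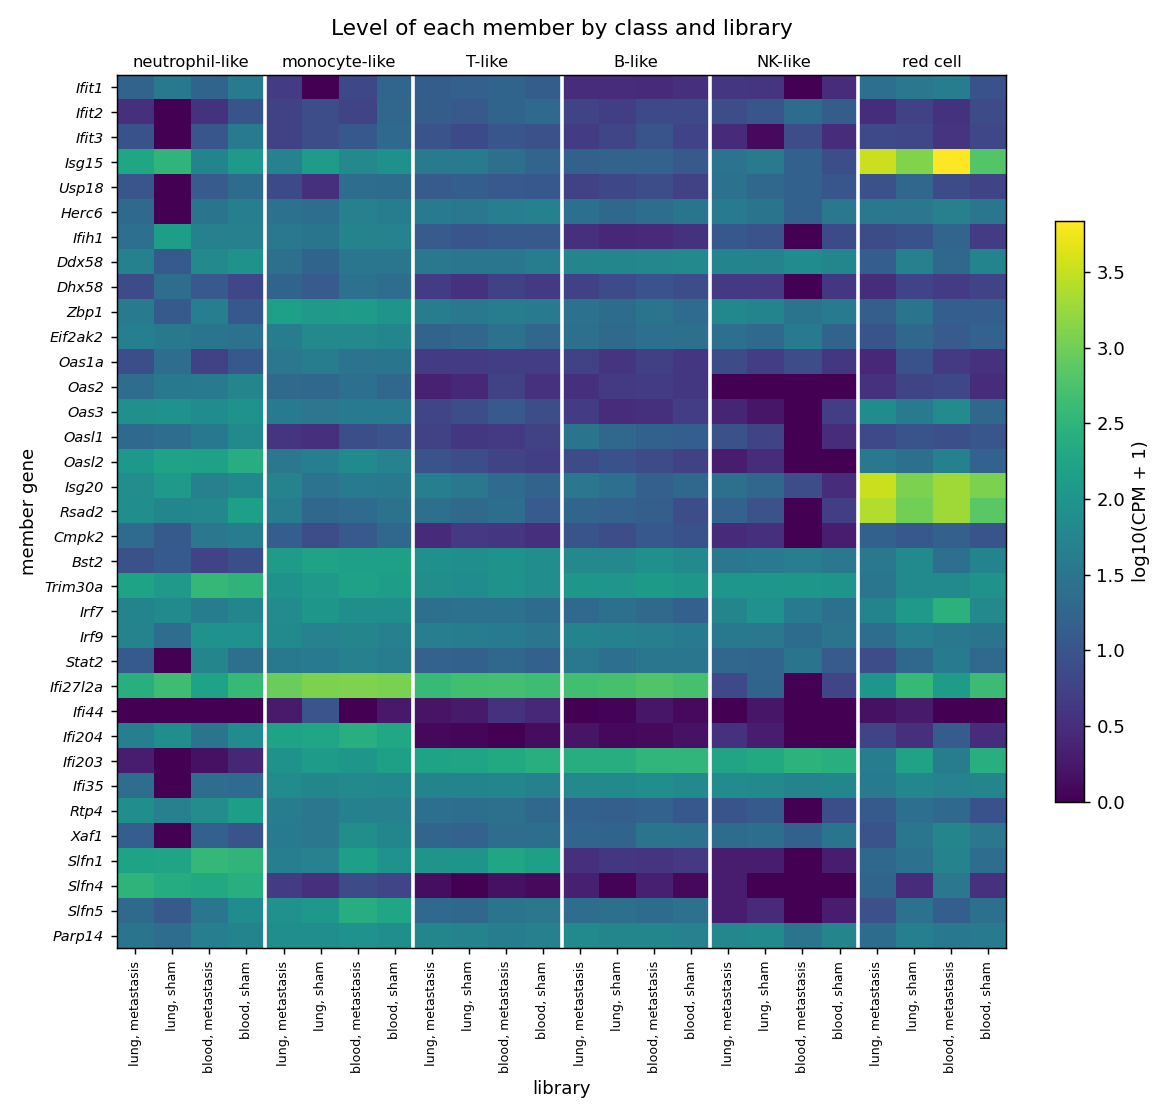
Rows are the 35 members in the order of their roles, columns are the 4 libraries of each class, and colour gives log10(CPM + 1). Isg15, Isg20 and Rsad2 stand out in red cells at 645 to 6848 CPM, Ifi27l2a in monocyte-like, T-like and B-like cells, and Slfn4 in neutrophil-like cells. Ifi27l2a also lies at 168 to 445 CPM in neutrophil-like cells.

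Between arms, T-like, B-like, NK-like and monocyte-like cells differed little in the list, and few of their members passed the rule for a call. A gene counted as measured when the arms together held 100 or more of its UMIs and its mean reached 10 CPM, and it was called at 1.5-fold or more with an interval that excludes equality. In lung the log2 ratio of the list, metastasis over sham, was -0.041 (-0.080 to -0.0020) in T-like cells, 0.0030 (-0.044 to 0.050) in B-like cells, -0.071 (-0.15 to 0.0095) in NK-like cells and -0.23 (-0.33 to -0.13) in monocyte-like cells. In blood it was 0.11 (0.053 to 0.16) in T-like cells, 0.15 (0.12 to 0.19) in B-like cells and 0.11 (0.067 to 0.16) in monocyte-like cells. In lung T-like cells 0 of 24 measured members were called in either direction, against a background of 0.904% of all measured genes higher and 0.243% lower. In lung B-like cells 1 of 20 was higher and 0 lower, against 1.03% and 0.5% of all measured genes. In lung NK-like cells 0 of 16 were higher and 1 lower, against 1.06% and 0.998%. In lung monocyte-like cells 0 of 11 were higher and 1 lower, against 2.80% and 2.98%. In blood 3 of 24 members were higher and 0 lower in T-like cells, against 3.47% and 1.20% of all measured genes. In blood B-like cells 1 of 20 was higher and 0 lower, against 1.21% and 0.794%. In blood monocyte-like cells 1 of 26 was higher and 0 lower, against 4.76% and 5.85%. The median log2 ratio over the measured members was 0.22 in blood T-like cells and 0.17 in blood B-like cells, beside 0.05 and 0.04 over all measured genes.

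The called members of these classes were spread over several roles. Oasl1, which represses translation of Irf7 in mice, had 28.6 CPM in B-like cells of metastasis lung and 18.9 CPM in those of sham lung, a log2 ratio of 0.60 (0.22 to 0.96). Irf7 had 55.0 CPM in NK-like cells of metastasis lung and 87.0 CPM in those of sham lung, a log2 ratio of -0.66 (-0.98 to -0.35). Isg15 had 49.2 CPM in monocyte-like cells of metastasis lung and 126 CPM in those of sham lung, a log2 ratio of -1.35 (-1.93 to -0.78). Slfn1 had 144 CPM in monocyte-like cells of metastasis blood and 93.9 CPM in those of sham blood, a log2 ratio of 0.61 (0.36 to 0.87). In blood T-like cells Eif2ak2, the kinase that stops translation on double-stranded RNA, had 25.9 CPM in metastasis and 17.3 CPM in sham, a log2 ratio of 0.59 (0.12 to 1.03). Isg15 had 25.4 CPM in T-like cells of metastasis blood and 16.7 CPM in those of sham blood, a log2 ratio of 0.61 (0.13 to 1.06). Rsad2, the enzyme viperin that makes a chain-ending nucleotide, had 23.4 CPM in T-like cells of metastasis blood and 11.6 CPM in those of sham blood, a log2 ratio of 1.01 (0.50 to 1.501). In B-like cells of blood Rsad2 had 13.3 CPM in metastasis and 6.99 CPM in sham, a log2 ratio of 0.93 (0.48 to 1.36). A UMI of Rsad2 was seen in 2.97% of T-like cells in metastasis blood and 2.64% in sham blood. For B-like cells it was 1.92% and 1.60%, and for Isg15 in T-like cells 5.94% and 5.60%. Such shares also depend on depth, which was lower in metastasis blood for both classes. The intervals take UMIs as independent and do not cover how they gather in few cells. With a stricter gate, of at least 3 own markers and none of another class, the list ratio was -0.05 in blood T-like cells and -0.15 in blood monocyte-like cells, and that of Isg15 in blood T-like cells was -0.43.

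Isg15, Isg20 and Rsad2 were abundant in red cells, and lymphocytes also held RNA of red cell genes. The sum of 8 red cell genes, among them Alas2, Slc4a1 and Bpgm, was 684 and 660 CPM in T-like cells of metastasis and sham lung, and 347 and 293 CPM in those of metastasis and sham blood. Isg15 was counted at 57.9 and 52.7 UMIs per 1000 UMIs of these genes in red cells of metastasis and sham lung. In T-like cells of the same libraries it was counted at 56.7 and 54.3 per 1000, so the ratio was nearly that of red cells. B-like cells of these libraries had 30.6 and 35.1 per 1000, and NK-like cells had 47.3 and 66.6 per 1000. In red cells of metastasis and sham blood Isg15 was at 138 and 32.6 per 1000, against 73.3 and 56.9 per 1000 in T-like cells. Isg20 was at 57.4 and 49.8 per 1000 in red cells of metastasis and sham lung and at 65.3 and 50.4 per 1000 in T-like cells. Rsad2 was at 42.3 and 43.5 per 1000 in red cells of metastasis and sham lung and at 37.2 and 30.9 per 1000 in T-like cells. In blood Rsad2 was at 38.8 and 35.7 per 1000 in red cells of metastasis and sham, and at 67.4 and 39.5 per 1000 in T-like cells. Isg20 in blood was at 38.8 and 59.9 per 1000 in red cells of metastasis and sham, and at 60.1 and 53.4 per 1000 in T-like cells. In lung the ratios of T-like cells were thus near those of red cells, least so for Rsad2 in sham. In blood they departed from those of red cells for Isg15 in both arms and for Isg20 and Rsad2 in metastasis. Rsad2 in lung was at 35.7 and 34.1 per 1000 in B-like cells of metastasis and sham, and at 25.3 and 15.2 per 1000 in NK-like cells. The part of red cell RNA in the levels of these 3 members in lymphocytes was not tested. Neutrophil-like cells lay well above the ratio of red cells for Isg15, at 301 and 277 per 1000 in metastasis and sham lung and 315 per 1000 in sham blood, but at 114 per 1000 in metastasis blood. The contrast gene Irf7 was at 0.907 to 5.74 per 1000 in red cells and at 36.9 or more per 1000 in every leukocyte class, and Ifit1 was at 0.414 to 1.34 per 1000 in red cells and 18.3 to 46.9 per 1000 in T-like cells.

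**Figure D3:**
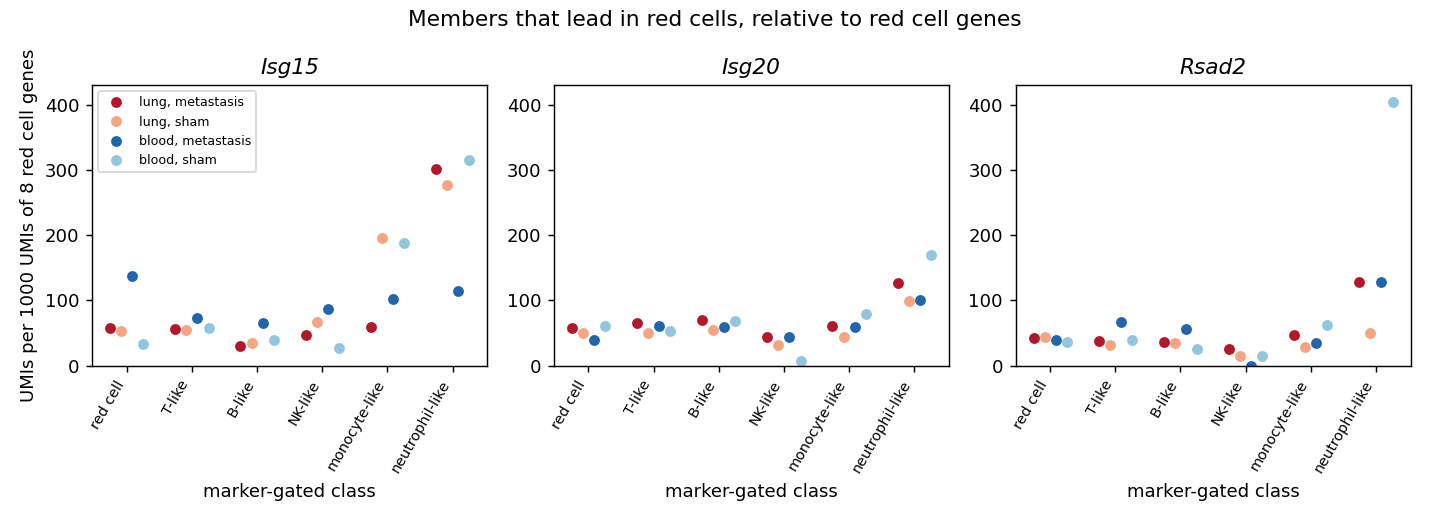
The y axis gives UMIs of Isg15, Isg20 or Rsad2 per 1000 UMIs of 8 red cell genes, and the x axis the class, with 1 point for each library. T-like and B-like cells lie at 25.6 to 73.3, and neutrophil-like cells reach 315 for Isg15 and 404 for Rsad2.

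Blood neutrophil-like cells were the leukocyte class in which the most members were called. Of 29 measured members 2 were higher and 11 lower in metastasis, against a background of 17.4% of all measured genes higher and 17.5% lower. The median log2 ratio of the members was -0.53, beside -0.02 over all measured genes, and the ratio of the summed list was -0.38 (-0.43 to -0.33). The lower members included 4 of 5 measured genes of the tetratricopeptide and ISG15 group and 4 of 9 of the Ifi, Slfn and other inducible genes. Ifit3, a partner of Ifit1 in binding foreign RNA, had 9.61 CPM in metastasis and 35.5 CPM in sham, a log2 ratio of -1.88 (-2.46 to -1.29). Rsad2 had 58.4 CPM in metastasis and 143 CPM in sham, a log2 ratio of -1.30 (-1.56 to -1.03). Ifi204 had 29.1 CPM in metastasis and 69.3 CPM in sham, a log2 ratio of -1.25 (-1.63 to -0.86). The other lower members were Slfn5, Ifit1, Ifi27l2a, Isg15, Oasl1, Usp18, Rtp4 and Oasl2, with log2 ratios of -1.25 to -0.64. Zbp1 was higher, at 42.5 CPM in metastasis and 10.5 CPM in sham, a log2 ratio of 2.02 (1.22 to 2.95). Stat2, the signalling partner of Irf9, was also higher, at 54.2 CPM in metastasis and 25.0 CPM in sham, a log2 ratio of 1.12 (0.59 to 1.70). Irf9 itself had 88.5 CPM in metastasis and 85.4 CPM in sham. Members were thus called in both directions, but the 2 of 29 called higher are a smaller share than the 17.4% of all measured genes.

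The neutrophil-like cells of the arms also differed in their own markers. The 8 neutrophil markers summed to 41912 CPM in metastasis blood and 13183 CPM in sham blood. Ngp, a granule protein of immature neutrophils, had 6686 CPM in metastasis and 265 CPM in sham. Of the cells, 1018 of 2199 in metastasis and 383 of 392 in sham had 0 Ngp UMIs. Among these cells the list ratio was 0.15 (0.093 to 0.21), against -0.38 over the whole class. Of the 11 lower members only Rsad2 still passed the rule for a call there. Ifit3 held too few UMIs in these cells to count as measured, and the other 9 did not pass. Isg15 then had 97.9 CPM in metastasis and 115 CPM in sham, and Ifi27l2a had 374 and 384 CPM. Ifit3 stayed lower among cells with 0 Ngp UMIs, at 15.5 CPM in metastasis and 36.9 CPM in sham, a log2 ratio of -1.25 (-1.94 to -0.56). Rsad2 had 87.6 CPM in metastasis and 147 CPM in sham, a log2 ratio of -0.75 (-1.06 to -0.45). Zbp1 had 48.5 CPM in metastasis and 10.9 CPM in sham, and Stat2 had 67.8 CPM in metastasis and 24.3 CPM in sham. Oasl2 turned round, at 324 CPM in metastasis and 248.7 CPM in sham. The part of these markers in the other ratios was not tested. Platelet markers, at least 2 of them, were found in 35.6% of blood neutrophil-like cells in metastasis and 38.0% in sham. The 6 platelet markers summed to 3518 CPM in metastasis and 1077 CPM in sham. Without these cells Ifit3 had 11.5 CPM in metastasis and 13.03 CPM in sham, a log2 ratio of -0.18 (-1.23 to 1.03), while Rsad2 kept a log2 ratio of -1.30.

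**Figure D4:**
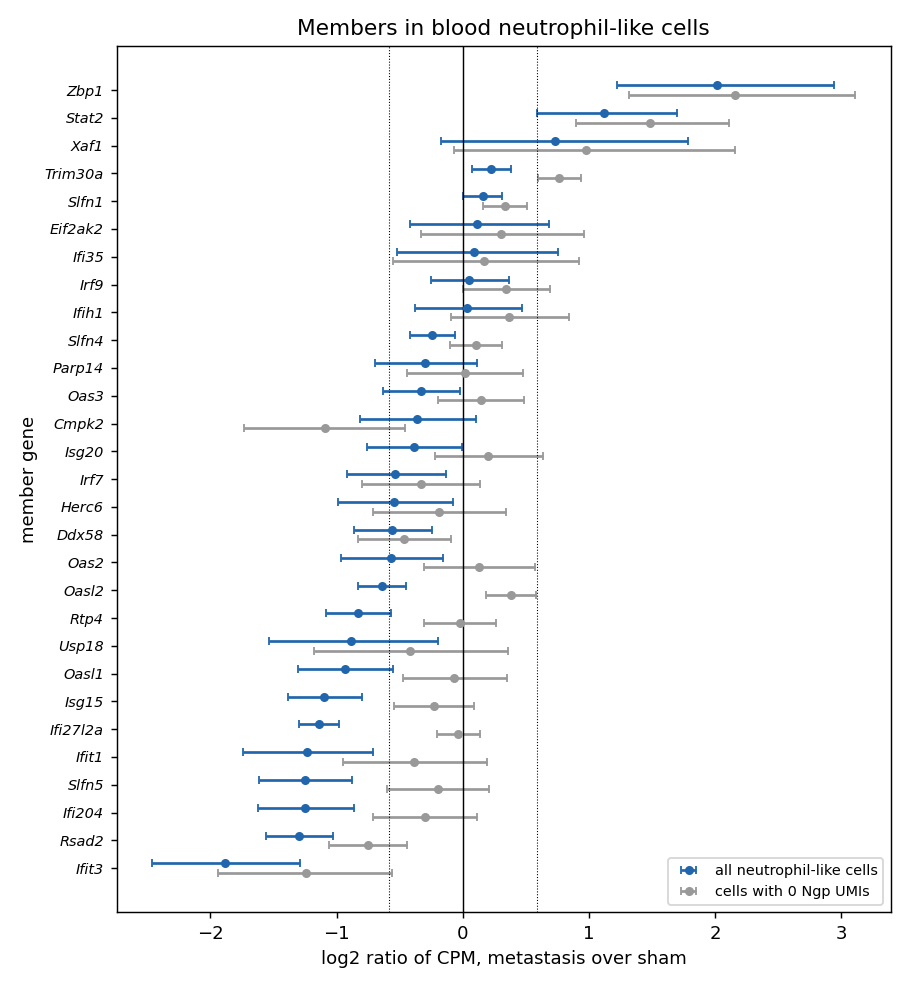
The x axis gives the log2 ratio of CPM, metastasis over sham, with its 95% interval, for each of 29 measured members on the y axis, and dotted lines mark 1.5-fold. Blue points are all blood neutrophil-like cells and grey points the cells with 0 Ngp UMIs, where Ifi27l2a lies at -0.04 and Zbp1 at 2.15.

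Red cells had a higher list level than the 5 leukocyte classes, and most of it lay in Isg15, a ubiquitin-like modifier, Isg20, an exonuclease for RNA, and Rsad2. These 3 members made up 93.2% of list UMIs in red cells of metastasis lung and 72.3% in those of sham lung, and 90.002% in metastasis blood and 65.8% in sham blood. Isg15 had 3351 CPM in red cells of metastasis lung and 1270 CPM in those of sham lung, and 6848 CPM in metastasis blood and 645 CPM in sham blood. Isg20 had 3320 and 1201 CPM in metastasis and sham lung, and 1929 and 1187 CPM in metastasis and sham blood. Rsad2 had 2445 and 1049 CPM in metastasis and sham lung, and 1930 and 708 CPM in metastasis and sham blood. A UMI of Isg20 was seen in 89.6% of red cells in metastasis lung and 70.3% in sham lung, and in 77.1% in metastasis blood and 83.9% in sham blood. The Ifit genes stayed low beside them, with Ifit1 at 23.97 and 32.4 CPM in metastasis and sham lung and 39.4 and 8.24 CPM in metastasis and sham blood.

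Red cells of the arms differed in how many held markers of leukocytes. Markers of other classes, at least 2 of them, were found in 13.1% of red cells in metastasis lung and 65.4% in sham lung, and in 11.1% in metastasis blood and 66.9% in sham blood. The median non-haemoglobin depth was 737 UMIs in metastasis lung and 1530 UMIs in sham lung, and 737 UMIs in metastasis blood and 2944 UMIs in sham blood. The median log2 ratio over all measured genes was -1.29 in lung and -1.02 in blood. Of 25 measured members in lung red cells 4 were higher and 16 lower, against 13.8% of all measured genes higher and 72.1% lower. Of 20 in blood red cells 12 were higher and 4 lower, against 19.6% and 61.5%. In lung the highest ratios were those of Isg20 at 1.47 (1.42 to 1.52), Isg15 at 1.40 (1.35 to 1.45) and Rsad2 at 1.22 (1.17 to 1.27). Ifi203 had 40.6 CPM in metastasis and 162 CPM in sham lung, a log2 ratio of -1.995 (-2.22 to -1.77). Ifi27l2a had 103 CPM in metastasis and 368 CPM in sham lung, a log2 ratio of -1.84 (-1.98 to -1.70), and Xaf1 had 8.72 and 30.9 CPM. In blood the highest ratios were those of Slfn4 at 3.62 (2.35 to 5.27), Isg15 at 3.41 (3.33 to 3.49) and Ifit1 at 2.26 (1.51 to 3.11). The lowest in blood were Ifi203 at -2.69 (-2.97 to -2.41), Ifi27l2a at -1.76 (-1.93 to -1.59) and Ddx58 at -1.47 (-1.94 to -1.01). Ifi203 and Ifi27l2a are the leading members of T-like and B-like cells. Markers of B-like cells summed to 915.6 CPM in red cells of metastasis blood and 6057 CPM in those of sham blood. Neutrophil markers went the other way, at 4693 CPM in red cells of metastasis blood and 235 CPM in those of sham blood, and at 1622 CPM in metastasis lung and 80.0 CPM in sham lung. Slfn4, a member high in neutrophil-like cells, moved with them. The part of leukocyte RNA in these ratios was not tested.

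Red cells with 0 markers of any other class gave a different picture. They numbered 4855 in metastasis lung and 478 in sham lung, and 2762 in metastasis blood and 199 in sham blood. Their list level was 12403 CPM in metastasis lung and 20296 CPM in sham lung, so the lung ratio turned to -0.71 (-0.75 to -0.67). In blood it was 15290 CPM in metastasis and 13182 CPM in sham, a log2 ratio of 0.21 (0.15 to 0.28). Isg15 among these cells had 4472 CPM in metastasis lung and 8145 CPM in sham lung, and 9357 CPM in metastasis blood and 4316 CPM in sham blood. Isg20 had 4354 CPM in metastasis lung and 5350 CPM in sham lung, and 2592 CPM in metastasis blood and 5321 CPM in sham blood. Rsad2 had 3201 CPM in metastasis lung and 5224 CPM in sham lung, and 2509 CPM in metastasis blood and 2974 CPM in sham blood. Ifit1 had 26.0 CPM in metastasis lung and 159 CPM in sham lung, and Irf7 had 56.4 CPM in metastasis lung and 398 CPM in sham lung. In blood Irf7 had 358 CPM in metastasis and 263 CPM in sham.

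Barcodes under 200 genes, of which haemoglobin made up 93.9% to 95.04% of UMIs, gave a further reading of red cell RNA. Their list level was 11949 CPM in metastasis lung and 12588 CPM in sham lung, and 17886 CPM in metastasis blood and 11302 CPM in sham blood. Isg15 had 2618 CPM in metastasis lung and 2505 CPM in sham lung, against 9061 CPM in metastasis blood and 2319 CPM in sham blood. Isg15 was thus higher in metastasis blood in all 3 sets, with log2 ratios of 3.41, 1.12 and 1.97. In lung its log2 ratios of 1.40, -0.87 and 0.06 had no common direction. Irf7 was likewise higher in metastasis blood in all 3 sets, with log2 ratios of 2.19, 0.45 and 1.46, and lower in metastasis lung, with log2 ratios of -1.09, -2.82 and -1.33. The 3 sets share cells or free RNA of 1 library each and are no replicates.

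**Figure D5:**
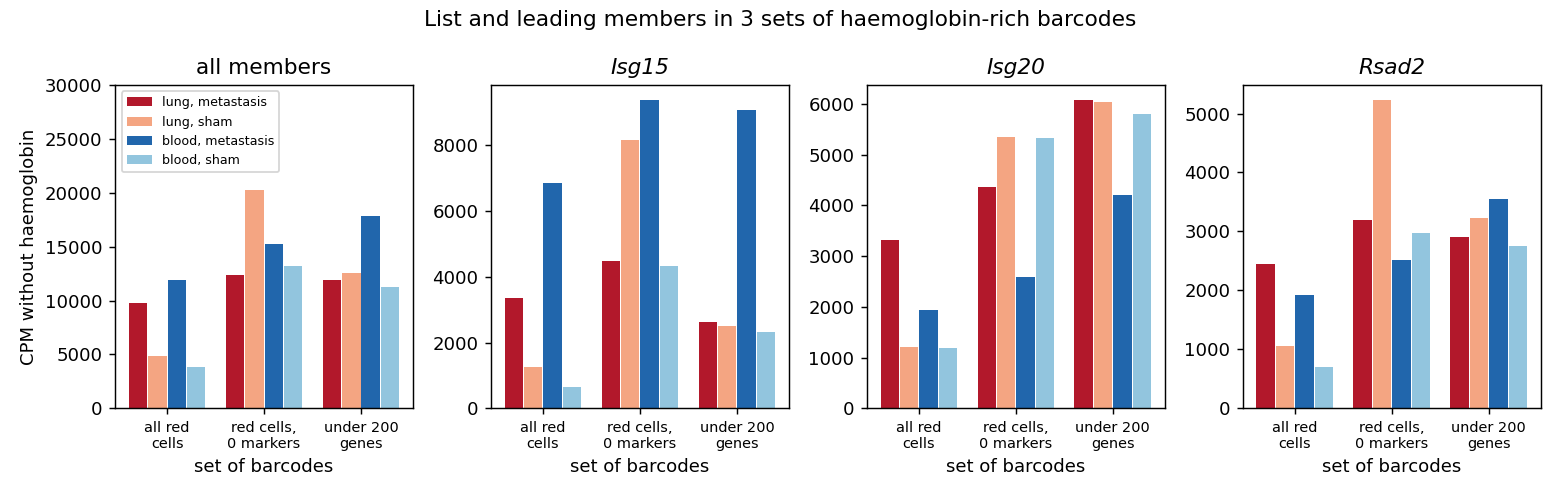
The y axes give CPM without haemoglobin of all members, Isg15, Isg20 and Rsad2, and the x axes 3 sets of barcodes, with 1 bar for each library. Isg15 of metastasis blood is the tallest bar in each set at 6848, 9357 and 9061 CPM, and in lung the sham bar exceeds the metastasis bar among red cells with 0 markers.

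Interferon-high cells were defined as cells with at least 5 UMIs of the list, a count that also depends on depth. Without thinning, 31.2% of T-like cells in metastasis lung and 43.0% in sham lung were above it, and 48.7% in metastasis blood and 68.4% in sham blood. The median depth of these cells was 2836 and 3622 UMIs in metastasis and sham lung, and 3760 and 5445 UMIs in metastasis and sham blood. After thinning each cell to 1000 non-haemoglobin UMIs, 4.83% (3.85 to 5.98) of T-like cells in metastasis lung and 5.51% (4.86 to 6.22) in sham lung were interferon-high. In blood it was 4.37% (2.76 to 6.55) in metastasis and 5.77% (4.84 to 6.82) in sham, and the intervals of the arms overlapped in both tissues. Thinned B-like cells reached 5.86% in metastasis lung and 6.57% in sham lung, and 8.71% (7.38 to 10.2) in metastasis blood and 6.66% (6.11 to 7.25) in sham blood. Monocyte-like cells reached 15.4% in metastasis lung and 17.6% in sham lung, and 27.4% in metastasis blood and 23.2% in sham blood. Neutrophil-like cells reached 11.2% in metastasis lung, and 14.3% in metastasis blood and 16.6% in sham blood. Thinned NK-like cells were almost never interferon-high, at 9 of 926 cells in metastasis lung and 14 of 1743 cells in sham lung. In blood it was 0 of 46 and 0 of 225 NK-like cells, which allow shares of up to 6.52% and 1.33%. Red cells with enough UMIs reached 56.4% of 1730 in metastasis lung and 18.6% of 1166 in sham lung. In blood they reached 53.9% of 785 in metastasis and 25.5% of 522 in sham. Before this cut there were 6176 red cells for metastasis lung and 1958 for sham lung. Of sham lung red cells 65.4% held 2 or more markers of other classes, against 13.1% for metastasis lung. Red cells with 0 such markers had a lower list level in metastasis lung, at 12403 CPM against 20296 CPM for sham lung. For blood these levels were 15290 CPM with metastasis and 13182 CPM with sham. The part of this selection in the shares was not tested. Over all red cells Isg15, Isg20 and Rsad2 made up 65.8% to 93.2% of list UMIs. For red cells the name interferon-high thus stands only for the count of list UMIs and does not speak for the other members.

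To see whether the members go together within cells, thinned cells with at least 5 UMIs of 18 members were picked, every other one of the list, and the other 17 members were read in them. In T-like cells picked this way the 17 other members had 2227 CPM against 613 CPM in the rest of the T-like cells of metastasis lung, and 2386 against 581 CPM in sham lung. In blood they had 3761 against 732 CPM in metastasis T-like cells and 3112 against 723 CPM in sham T-like cells. In neutrophil-like cells they had 3985 against 937 CPM in metastasis blood and 5882 against 1068 CPM in sham blood. In B-like cells they had 1764 against 522 CPM in metastasis lung and 1824 against 499.8 CPM in sham lung. In monocyte-like cells the difference was smaller, at 1748 against 833 CPM in metastasis lung, and 1920 against 1103 CPM in metastasis blood and 2728 against 959 CPM in sham blood. Red cells were the largest class of picked cells, at 611. The genes outside the list with the largest ratios in them were Bpifa1, Mgst3, Cdca3, Gmpr, Apol11b, Ccnb2, Cox6b2, Vangl1, Car1 and Rfesd. None of these genes was on the lists of interferon genes read below. Among leukocytes B-like cells held the most picked cells, at 461, led by Slc6a16, Ifitm3, Trim30c, A330040F15Rik, Ifi208, Igtp, A930037H05Rik, Ifi213, Tor3a and Ifi47. Of these genes Ifitm3, Ifi208, Igtp, Ifi213, Tor3a and Ifi47 were on those lists. Ifitm3, an inhibitor of viral entry, had 48.6 CPM in the picked B-like cells and 3.40 CPM in other B-like cells. Slc6a16 had 50.9 CPM in the picked cells and 0.0850 CPM in the others, on 66 and 4 UMIs, and the cells that held them were not counted.

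A narrower definition, added after the data were seen, took cells with at least 3 UMIs of Ifit1, Ifit2 and Ifit3 together. It marked 8 of 1672 T-like cells in metastasis lung and 32 of 4536 in sham lung, and 5 of 505 in metastasis blood and 34 of 2234 in sham blood. The shares were 0.478% (0.207 to 0.941), 0.705% (0.483 to 0.994) in lung, and 0.990% (0.322 to 2.30) and 1.52% (1.06 to 2.12) in blood. In blood neutrophil-like cells it marked 19 of 2199 in metastasis and 12 of 392 in sham, which is 0.864% (0.521 to 1.35) and 3.06% (1.59 to 5.29). After thinning and with at least 2 UMIs it marked 14 of 2163 and 6 of 379 of them, and the intervals of 0.354% to 1.08% and 0.583% to 3.41% overlapped. Without thinning the rule marked 32 red cells of the 4 libraries together and left 12239 unmarked. The unmarked red cells had a median of 783 non-haemoglobin UMIs. In the marked T-like cells the other members together had 5816 CPM in metastasis lung and 8381 CPM in sham lung, against 1329 and 1342 CPM in the unmarked cells of these libraries. In blood they had 8021 CPM in metastasis and 6472 CPM in sham, against 1535 and 1395 CPM in unmarked cells. In marked neutrophil-like cells they reached 13612 CPM in metastasis blood and 13578 CPM in sham blood, against 2126 and 2455 CPM in unmarked cells. Genes outside the list that stood highest in marked T-like cells of all libraries were A330040F15Rik, Ifit1bl1, Phf11c, Gbp6, Ddx60, Phf11b, Slfn8, Gbp7, Rnf213 and Ifi208. Ddx60, a helicase that aids RNA sensing, had 188 CPM in marked and 20.4 CPM in other T-like cells. In the 15 marked monocyte-like cells Cxcl10, a chemokine that draws T cells, had 438 CPM against 1.21 CPM in the others. These levels rest on 68 and 7 UMIs, and how many cells held them was not counted.

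Transcripts of type I and type III interferons were nearly absent. Of 21 ligand genes 5 had a UMI in the cells kept: Ifna2 with 1, Ifnab with 2, Ifnk with 7, Ifnz with 1 and Ifng with 1216. Ifng, the type II interferon, had 149 CPM in NK-like cells of metastasis lung and 73.1 CPM in those of sham lung, a log2 ratio of 1.03 (0.79 to 1.26). In blood NK-like cells it had 129 CPM over 46 metastasis cells and 195 CPM over 228 sham cells. Genes of the interferon gamma response were called in several classes, and each count is set beside the share of all measured genes called higher in the same comparison. In lung T-like cells 2 of 17 measured were higher, against 0.904% of all genes, the guanylate-binding proteins Gbp5 at 16.4 CPM in metastasis and 8.34 CPM in sham and Gbp2 at 41.2 CPM in metastasis and 25.5 CPM in sham. In lung monocyte-like cells 2 of 6 were higher, against 2.80%, the proteasome subunit Psmb9 at 186 CPM in metastasis and 79.2 CPM in sham and the checkpoint ligand Cd274 at 134 CPM in metastasis and 67.6 CPM in sham. In lung B-like cells 2 of 13 were higher, against 1.03%, Nlrc5 and Serpina3g, each with a log2 ratio of 0.65. In blood neutrophil-like cells 5 of 13 were higher and none lower, against 17.4% and 17.5%, led by Nlrc5 at 1.41 (0.43 to 2.57), Psmb10 at 1.00 (0.06 to 2.10) and Gbp7 at 0.92 (0.42 to 1.47). In blood monocyte-like cells 3 of 13 were higher and 1 lower, against 4.76% and 5.85%, with Gbp3 at 1.14 (0.62 to 1.67), Cd274 at -1.06 (-1.58 to -0.57) and Gbp7 at 0.80 (0.22 to 1.39). In blood T-like cells 1 of 18 was higher, against 3.47%, Gbp3 at 0.73 (0.03 to 1.38). No gene of this list was called in lung NK-like or blood B-like cells, with 12 and 15 measured. Of all measured genes 1.06% and 1.21% were called higher there, and 0.998% and 0.794% lower.

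Of 8 genes of the receptor and its kinases, 7 or 8 were measured in each leukocyte comparison. None was called in T-like or B-like cells of either tissue, in lung NK-like cells or in blood monocyte-like cells. Of all measured genes 0.904% to 4.76% were called higher and 0.243% to 5.85% lower in these comparisons. In blood neutrophil-like cells 3 of 7 were lower, against 17.5% of all measured genes, with Ifngr2 at -0.97 (-1.20 to -0.72), Ifnar1 at -0.67 (-1.06 to -0.26) and Jak2 at -0.62 (-0.85 to -0.38). In lung monocyte-like cells 1 of 7, Ifnar1, was lower, against 2.98%, at 56.5 CPM in metastasis and 93.2 CPM in sham. Of the negative regulators 4 of 9 were higher and 1 lower in blood T-like cells, against 3.47% and 1.20% of all measured genes, and Isg15 is 1 of the 4. Socs3, a suppressor of cytokine signalling through Jak kinases, had 121 CPM in metastasis and 29.3 CPM in sham, a log2 ratio of 2.05 (1.80 to 2.28). Socs1 had 55.4 CPM in metastasis and 22.2 CPM in sham, a log2 ratio of 1.32 (0.99 to 1.64), and Trim24 had a log2 ratio of 0.77 (0.40 to 1.12). Socs3 was also called higher in B-like cells of lung at 0.71 and of blood at 0.76, and in blood monocyte-like cells at 0.71. In blood monocyte-like cells Pias1 was lower at -0.74 (-1.03 to -0.45). In blood neutrophil-like cells 2 of 9 negative regulators were higher and 3 lower, against 17.4% and 17.5%, with Ptpn2 at -1.29 (-1.69 to -0.87) and Trim24 at 1.09 (0.16 to 2.19), and Isg15 is on this list too. Of the genes that induce interferon, Tlr7 was lower in lung monocyte-like cells at 93.0 CPM in metastasis and 156 CPM in sham, and Tmem173, the sensor adaptor STING, was higher in blood monocyte-like cells at 56.9 CPM in metastasis and 37.1 CPM in sham. No other gene of that list was called in leukocytes.

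A separate list held other interferon-induced genes that are no members. In lung T-like and B-like cells and in blood B-like cells none of 41, 42 and 42 measured genes was called. Of all measured genes 0.904%, 1.03% and 1.21% were called higher there, and 0.243%, 0.5% and 0.794% lower. Shares this small leave little room for calls in lists of this size. In lung NK-like cells 2 of 31 were higher and 1 lower, against 1.06% and 0.998%, with Daxx at 0.64, Ube2l6 at -0.59 and Trim30d at 0.59. In blood T-like cells 3 of 41 were higher, against 3.47%, with Ly6a at 1.03 (0.79 to 1.28), Hsh2d at 0.93 (0.44 to 1.41) and Phf11b at 0.62 (0.22 to 1.01). In blood monocyte-like cells 3 of 36 were higher and 2 lower, against 4.76% and 5.85%, with Samd9l at -0.95, Nt5c3 at 0.79 and Parp12 at 0.78. In blood neutrophil-like cells 2 of 31 were higher and 3 lower, against 17.4% and 17.5% of all measured genes, with Nt5c3 at 1.05 (0.51 to 1.65), Epsti1 at -0.94 (-1.14 to -0.74) and Trim30d at -0.93 (-1.13 to -0.72). The median log2 ratio of this list in blood neutrophil-like cells was 0.04, beside -0.53 over the measured members. In red cells 3 of 37 genes of the list were higher and 32 lower in lung, against 13.8% and 72.1% of all measured genes. In blood 6 of 32 were higher and 21 lower, near the 19.6% and 61.5% of all measured genes. The list included Ifi214 at -2.73 in lung and Ifi206 at -2.96 in blood. Of the lists of T cell and B cell states, 14 of 16 T cell genes and 10 of 10 B cell genes were lower in lung red cells, against 72.1% of all measured genes. In blood red cells 10 of 12 and 9 of 9 were lower, against 61.5%. Cd74 had 743 CPM in red cells of metastasis lung and 3768 CPM in those of sham lung, and Ighm had 312 CPM in metastasis blood and 2054 CPM in sham blood. Of the receptor and kinase genes 7 of 8 were lower in lung red cells, against 72.1%. In blood red cells 5 of 7 were lower, against 61.5%. These were Jak1, Jak2, Ifngr1, Ifngr2 and Ifnar1. Ifnar2 was higher, at 313 CPM in metastasis and 78.8 CPM in sham.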

How the data were processed

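Single-cell libraries of lung and blood were analysed, 1 for each tissue and arm. The authors deposited raw UMI counts per gene and barcode, with no normalisation. Cell Ranger 7.0.0, GRCm38.p6, Seurat 4.3.0.1 and R 4.3.1 are named in the submitters' processing notes, without saying what each did. Per the labels' protocols lungs passed a filter and live/dead columns and blood cells were taken by density centrifugation, while the design text names CD45 kits.

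Barcodes needed 200 genes or more and no more than 10% of UMIs from mitochondria, 8597 to 14132 in each library. Scrublet scores (scanpy 1.11.5) of 0.3 or more removed 1.29% to 5.69% of them as doublets, a common threshold set after the automatic one marked 0.419% of metastasis blood. Total counts per library were 112079231 to 132540945 UMIs, and median depth of kept cells without haemoglobin 1409 to 3800 UMIs. UMIs were summed by class and scaled to CPM without haemoglobin. Ratios carry exact conditional binomial intervals and shares exact Clopper-Pearson intervals, and a count of 0 allows up to 3 counts. The call rule was run on simulated Poisson counts, the model that the interval assumes. They hold no spread between cells or mice, so the run cannot test that spread. The members and lists were chosen with earlier results of these data known. Named members were the 8 of highest mean leukocyte CPM and the called members with the 3 highest and 3 lowest ratios of a comparison. Of the other lists up to 3 called genes with the largest ratios of a comparison were named. Further values shown, such as those of Ifi204, Slfn4 and the oligoadenylate synthetases, were chosen after they were seen. No p-value was computed.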

Additional observations from a re-analysis of the deposited data

Results flagged for a closer look

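The list ratio had opposite signs in lung and blood for 2 leukocyte classes, and the difference between tissues was not tested. In monocyte-like cells the log2 ratio of metastasis over sham was -0.23 in lung and 0.11 in blood. In T-like cells it was -0.041 in lung and 0.11 in blood. With the stricter gate the blood ratios were -0.15 in monocyte-like and -0.052 in T-like cells, and the lung ratio of monocyte-like cells was -0.012, so the opposite signs did not hold.

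In red cells Irf7, Stat2 and Xaf1 were called lower in lung and higher in blood, and this difference was not tested either. Of all measured genes 72.1% were called lower in lung and 19.6% higher in blood. The share of all genes called in opposite directions was not computed, so the members cannot be set beside it. Irf7 had a log2 ratio of -1.09 in lung and 2.19 in blood. Stat2 had -1.44 in lung and 0.99 in blood, and Xaf1 had -1.83 in lung and 0.78 in blood. Among red cells with 0 markers of other classes Xaf1 had 5.51 CPM in metastasis lung and 100.4 CPM in sham lung, and 66.4 CPM in metastasis blood and 22.8 CPM in sham blood. Stat2 rested there on few UMIs, 6 in metastasis lung and 5 in sham lung, and 86 in metastasis blood and 0 in sham blood.

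Barcodes under 200 genes, which the comparisons of classes leave out, carried a list level of 11949 CPM in metastasis lung and 12588 CPM in sham lung, and 17886 CPM in metastasis blood and 11302 CPM in sham blood. The highest level in the 5 leukocyte classes was 3425 CPM.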

How the results depend on the processing

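No paired analysis was possible because each group had 1 library, and leaving out a replicate was not possible for the same reason. All values are log2 ratios, metastasis over sham, and for the alternatives below the cause was not tested. Keeping doublets moved none of the 20 list and share ratios beyond their counting intervals.

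For the level of the list, scaling by the median gene ratio gave -0.094 in lung T-like cells, 2.30 in lung red cells, 0.11 in blood B-like cells and 2.65 in blood red cells. It also turned members of lung red cells to 0.16 for Usp18, 0.22 for Zbp1, 0.28 for Eif2ak2, 0.35 for Bst2, 0.16 for Trim30a, 0.19 for Irf7, 0.41 for Irf9, 0.50 for Ifi35, 0.18 for Rtp4 and 0.26 for Parp14. This scaling adds 1.29 in lung and 1.02 in blood red cells, the shift of the median gene. The mean of each cell's CPM gave 0.48 in lung red cells, 1.26 in blood red cells, -0.26 in blood neutrophil-like cells and 0.17 in blood monocyte-like cells. The stricter cell filter gave 0.95 and 1.00 in lung and blood red cells. Haemoglobin under 5% gave -0.084 in lung monocyte-like cells. The stricter gate gave -0.012 in lung monocyte-like, -0.080 in lung B-like, -0.15 in blood monocyte-like and -0.052 in blood T-like cells, and -0.43 for Isg15 in blood T-like cells. Without cells with platelet markers the ratio was -0.28 in blood neutrophil-like, 0.36 in blood monocyte-like and 1.71 in blood red cells. Without Ifi27l2a, Ifi203 and Trim30a it was -0.089 in lung monocyte-like, 0.092 in lung T-like, 0.11 in lung B-like, 1.17 in lung red cells, 0.17 in blood monocyte-like, 0.18 in blood T-like and 1.92 in blood red cells.

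Added after the data were seen, leaving out Isg15, Isg20 and Rsad2 gave -1.02 in lung red cells, -0.15 in blood red cells and -0.32 in blood neutrophil-like cells. Red cells with 0 markers of other classes gave -0.71 in lung and 0.21 in blood. There Isg15 was at -0.87, Oas3 at -1.18, Isg20 at -0.30, Rsad2 at -0.71 and Bst2 at 0.12 in lung, and Oas3 was at -0.29, Oasl2 at -0.48, Isg20 at -1.04, Rsad2 at -0.25 and Bst2 at 1.31 in blood. Neutrophil-like cells with 0 Ngp UMIs gave 0.15 for the list and 0.38 for Oasl2.

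For the share of interferon-high cells, thinning gave -0.19 in lung T-like, -0.17 in lung B-like, 0.28 in lung NK-like, 1.60 in lung red cells, 0.39 in blood B-like and 1.08 in blood red cells. Thinning with at least 3 UMIs gave -0.046 in lung T-like, 0.044 in lung B-like, 0.76 in lung red cells, 0.012 in blood neutrophil-like, 0.0046 in blood T-like, 0.17 in blood B-like and 0.58 in blood red cells. At least 10 UMIs gave -0.83 in lung B-like, 0.28 in lung NK-like, -0.59 in blood neutrophil-like, -0.71 in blood T-like, -0.64 in blood B-like and -0.12 in blood red cells. At least 3 UMIs gave -0.23 in lung and -0.29 in blood T-like cells, and the stricter gate gave -0.31 in blood B-like cells.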

Other observations

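Lung neutrophil-like cells were too few in sham for a comparison. Isg15 had 177 CPM over 1069 cells of metastasis lung and 319 CPM over 39 cells of sham lung, and the list shares at 5 or more UMIs after thinning were 105 of 938 and 4 of 33 cells. Scgb1a1, a secretory gene of airway cells, had 5842 CPM in neutrophil-like cells picked as interferon-high by 18 members and 588 CPM in the other neutrophil-like cells of the 4 libraries. Both sets pool lung and blood cells, and the part of tissue in this difference was not tested.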
